A study of Homo sapiens with 8 samples.

Results

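The 10 immediate early genes FOS, FOSB, FOSL1, JUN, JUNB, EGR1, MYC, IER2, IER3 and DUSP1 were followed in A375 cells, a human melanoma line with an activated BRAF kinase, on HG-U133 Plus2 arrays. The genes were chosen by name, with earlier results of these data known. All array probe sets (groups of short probes for a transcript) that carry their symbol and no other were taken: 17 probe sets for 10 genes, of 41091 probe sets and 19775 genes in all. All 10 genes and 15 of the 17 probe sets passed the filter on dim signals, as did 12672 genes in the whole series. IER3 and DUSP1 do not encode transcription factors, so the 10 are called immediate early genes here.

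There were 4 groups of 2 arrays. In shHSF1 Dox HSP990 cells, an inducible hairpin against HSF1, the master regulator of the heat shock response, was switched on with 100 ng/ml Doxycycline (Dox), and the cells then received 100 nM NVP-HSP990, an inhibitor of the chaperone HSP90, for 3 h. The shHSF1 HSP990 cells carried the same hairpin without Dox and received the same inhibitor. The shNTC Dox DMSO cells carried a non-targeting hairpin and received Dox and then 0.1% DMSO, the solvent, for 3 h, and the shNTC DMSO cells received DMSO without Dox. The sample titles separate cells with and without Dox, although the general culture note gives Dox for every line, and the titles were followed. The description fields of most samples name other cells or drugs than their titles do, and were not used. Both HSP990 groups are the shHSF1 line and both DMSO groups are the shNTC line, so that the inhibitor and the hairpin line cannot be told apart in any comparison between them. The comparison called the knockdown, shHSF1 Dox HSP990 against shHSF1 HSP990, differs in Dox itself as well as in HSF1. No group held shNTC cells with HSP990, so that Dox and the loss of HSF1 cannot be told apart in it. The HSF1 hairpin is 1 of the study's hairpins, in 1 cell line. Whether replicate arrays hold separate cultures is not stated, and p-values here rest on a spread between arrays that may be technical only.

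Immediate early genes are transcribed within minutes of a stimulus, without new protein synthesis, mostly through the ERK kinases and serum response factor, and their mRNAs are short-lived. FOS, FOSB and FOSL1 pair with JUN or JUNB to form AP-1, a dimer that binds DNA, while EGR1 is a zinc finger factor and MYC acts as a dimer with MAX. DUSP1 closes the loop by dephosphorylating MAP kinases. In melanoma cells with activated BRAF the ERK pathway is constantly on, and BRAF and other kinases of the pathway depend on HSP90.

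The promoters of 7 of the 10 genes were found in the RefSeq table (build GRCh38.p14, 250 bases before to 50 after the gene start), all but those of FOSL1, MYC and IER3. The 4 shown belong to genes whose signals differed between groups below or that hold the letters of a stress or stimulus element. Capitals mark both CArG boxes (the serum response factor element) in EGR1 on chr5:138465229-138465528, plus strand, a GC box in FOS on chr14:75278578-75278877, plus strand, the heat shock element letters in JUN on chr1:58783998-58784297, minus strand, and the CRE in DUSP1 on chr5:172771146-172771445, minus strand.
EGR1: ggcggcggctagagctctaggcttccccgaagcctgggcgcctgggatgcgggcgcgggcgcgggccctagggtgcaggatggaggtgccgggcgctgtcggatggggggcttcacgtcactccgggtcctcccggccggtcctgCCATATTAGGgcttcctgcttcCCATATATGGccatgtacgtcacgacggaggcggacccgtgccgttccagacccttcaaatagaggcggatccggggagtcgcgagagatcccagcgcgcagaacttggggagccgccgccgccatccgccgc
FOS: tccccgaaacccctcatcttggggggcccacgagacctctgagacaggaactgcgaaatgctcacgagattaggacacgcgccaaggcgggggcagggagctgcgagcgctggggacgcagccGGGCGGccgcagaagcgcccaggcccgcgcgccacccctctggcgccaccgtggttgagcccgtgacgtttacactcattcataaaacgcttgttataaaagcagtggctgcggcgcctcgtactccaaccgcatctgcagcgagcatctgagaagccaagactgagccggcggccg
JUN: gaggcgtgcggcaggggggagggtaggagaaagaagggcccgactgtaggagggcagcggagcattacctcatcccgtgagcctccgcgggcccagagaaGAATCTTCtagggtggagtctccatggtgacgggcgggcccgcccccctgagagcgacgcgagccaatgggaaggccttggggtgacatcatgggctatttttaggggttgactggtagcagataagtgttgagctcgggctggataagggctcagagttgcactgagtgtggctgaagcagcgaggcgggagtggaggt
DUSP1: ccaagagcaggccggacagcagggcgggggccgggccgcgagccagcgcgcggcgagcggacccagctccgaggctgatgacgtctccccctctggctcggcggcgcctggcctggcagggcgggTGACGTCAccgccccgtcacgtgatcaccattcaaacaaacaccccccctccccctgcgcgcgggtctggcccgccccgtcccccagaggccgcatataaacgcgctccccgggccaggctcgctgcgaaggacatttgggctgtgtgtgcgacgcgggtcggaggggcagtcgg

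Both strands were searched. The CArG box was found in 1.29% of 35116 promoters of this length and, among the 7, only in EGR1, where the boxes began 105 and 83 bases before the gene start. The CRE, TGACGTCA, was in 1.85% of all promoters and only in DUSP1 among the 7, 125 bases before the start, and DUSP1 alone held the E-box CACGTG (7.26% of all promoters), the site of MYC and MAX. The inverted heat shock element, GAANNTTC or TTCNNGAA, was in 13.5% of all promoters and only in JUN among the 7, 150 bases before the start. The GC box GGGCGG was in 45.0% of all promoters, in 64.4% of the promoters of genes tested, and in DUSP1, FOS, FOSB, IER2 and JUN. The AP-1 site TGACTCA (4.95%) and the EGR site GCGGGGGCG (5.07%) were in none of the 7 windows. A match describes the letters and not a bound site. Bases outside the windows were not searched. A gene without a match, such as FOS for the CArG box, may thus hold the element farther from its start.

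HSF1 itself checked the hairpin and Dox labels of the shHSF1 Dox HSP990 cells, the only group that its signal set apart. HSF1 could not check the Dox labels within the shNTC line, the hairpin labels of cells without Dox, or the inhibitor labels. On 202344_at, its brightest probe set, the MAS5 signal (a linear intensity scaled to a mean of 150 per array) was 5.5 and 7.3 in shHSF1 Dox HSP990 cells, 99.0 and 42.5 in shHSF1 HSP990 cells, 36.6 and 47.9 in shNTC Dox DMSO cells, and 38.2 and 47.3 in shNTC DMSO cells. The other HSF1 probe set, 213756_s_at, was below the array median on every array and did not pass the filter. The median signals of the 8 arrays lay between 10.6 and 14.2. The ratio of 3-prime to 5-prime ACTB signal, which reflects RNA quality, was 46.8 on the second shNTC Dox DMSO array and 4.73 to 18.9 on the others. Among these it was 18.9 on the first shHSF1 HSP990 array and 13.7 on the second shNTC DMSO array. Gene calls against shNTC Dox DMSO cells are also given without the second shNTC Dox DMSO array. Calls of single probe sets, and of listed genes in the difference of the Dox changes, are not. Of the melanocyte markers, SOX10, MITF, S100B and S100A1 were above the median on all arrays, while the pigment genes PMEL, MLANA, TYR and TYRP1 were too dim to be tested. Hepatocyte markers were dim (1 of 4 tested), as were leukocyte markers (0 of 3 on the array tested). Of 5 epithelial markers KRT8 and KRT18 were tested, and 4 of 5 fibroblast markers. The summed fibroblast signal was 824 to 894 in shHSF1 Dox HSP990 cells, 587 to 628 in shHSF1 HSP990 cells, 486 to 571 in shNTC Dox DMSO cells and 557 to 575 in shNTC DMSO cells, mostly from LUM. COL1A1, another of these markers, had 85.9 and 84.5 in shHSF1 Dox HSP990 cells against 117.0 and 113.7 in shHSF1 HSP990 cells, COL1A2 was too dim to be tested, and the part of these markers in the results was not tested. On bulk arrays fewer cells of a type and less RNA per cell cannot be told apart.

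**Figure D1:**
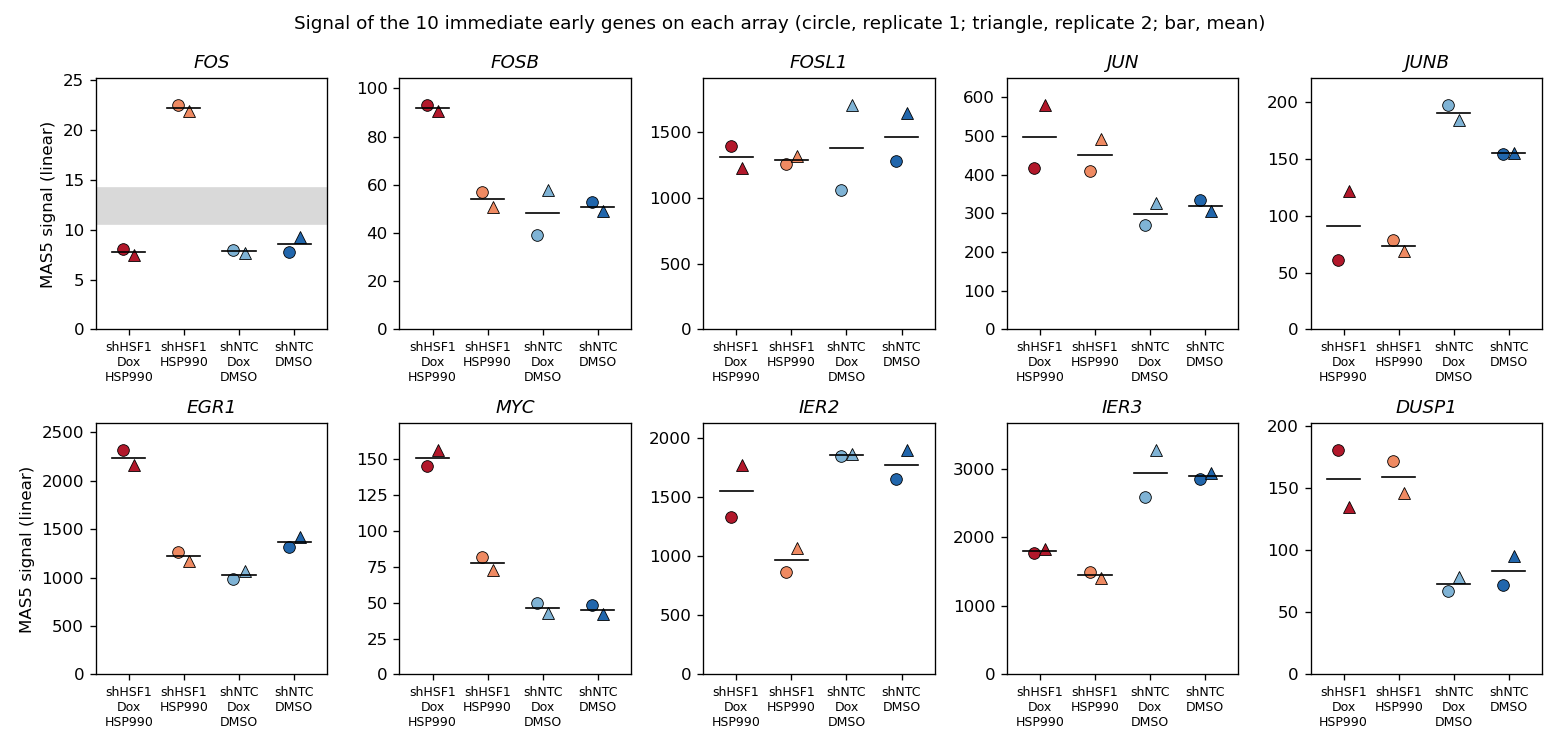
MAS5 signal (linear axis from 0) of each of the 10 genes, taken from its brightest probe set, on the 2 arrays of each group; circles are replicate 1, triangles replicate 2, bars the mean of both, and the grey band in the FOS panel spans the 8 array medians, 10.6 to 14.2. FOS was above the band only in shHSF1 HSP990 cells, while EGR1, FOSB and MYC were highest in shHSF1 Dox HSP990 cells, and JUNB and IER3 were lower on all 4 HSP990 arrays than on the 4 DMSO arrays.

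The 10 genes did not move together. EGR1 and MYC rose in the knockdown comparison under HSP990, in which Dox was also added. EGR1, MYC and DUSP1 rose and JUNB and IER3 fell in knockdown cells with HSP990 against shNTC cells with Dox and DMSO. IER3 also fell in shHSF1 HSP990 against shNTC DMSO cells. The threshold for a call was an adjusted p of 0.05 in limma, with Benjamini-Hochberg adjustment across the 12672 genes. FOS reached the array median, which the filter asked of at least 2 arrays, only on the 2 shHSF1 HSP990 arrays, so that its tests against that group are not read as results and the counts are over the 9 other genes. For the knockdown under HSP990, 2 of these 9 were called beside 2.84% of all genes (0.994% higher and 1.85% lower), both higher. For shHSF1 Dox HSP990 against shNTC Dox DMSO cells, 5 were called beside 5.83% (2.84% higher and 2.99% lower), and for shHSF1 HSP990 against shNTC DMSO cells 1 beside 0.221%. Dox in shNTC cells called none of the 10 and 0.0% of all genes. The arrays of the groups compared did not overlap for 5 of the 9 in the knockdown comparison (43.3% of all genes), for 8 in shHSF1 Dox HSP990 against shNTC Dox DMSO cells (44.5%), for 7 in shHSF1 HSP990 against shNTC DMSO cells (33.2%) and for 2 with Dox in shNTC cells (28.4%). The median log2 change of the 9 was 0.30, 0.70, -0.16 and -0.072 in these 4 comparisons, beside 0.0015, 0.014, 0.0096 and -0.0064 over all genes tested. Comparisons that share a group also share its arrays and are not independent of each other.

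**Figure D2:**
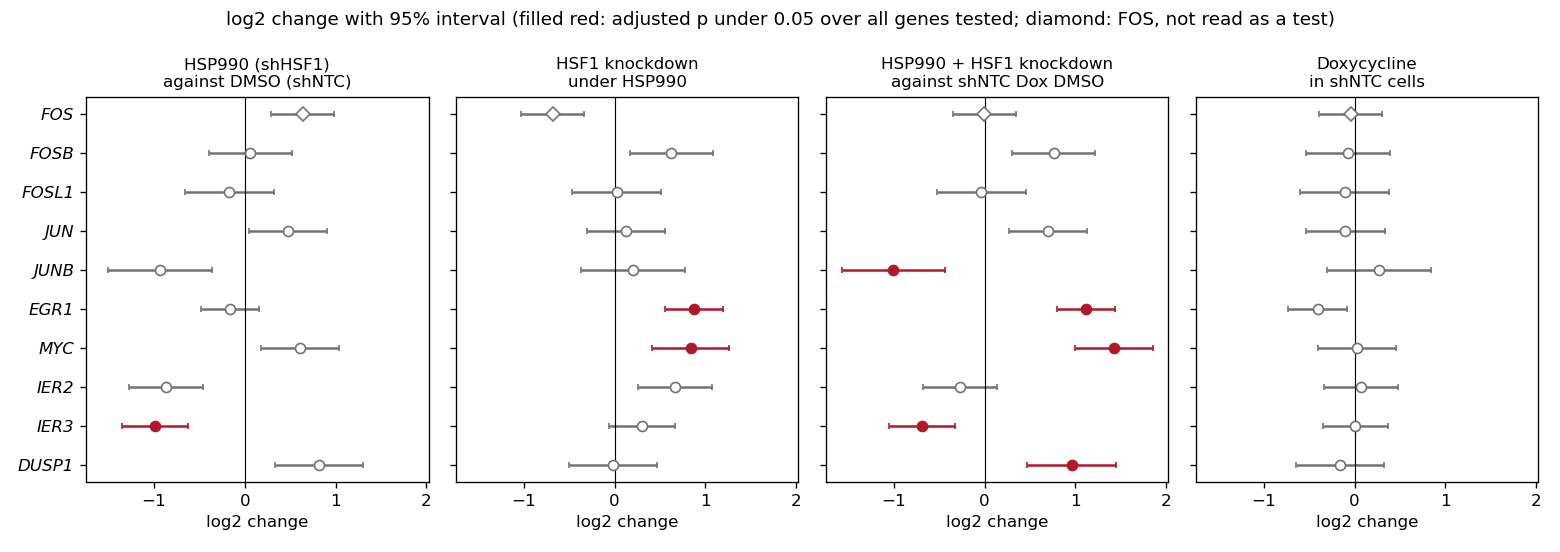
log2 change (horizontal axis, from log2 of signal plus 16) of each gene in 4 comparisons with its 95% interval; filled red points were called at an adjusted p under 0.05 over all genes tested, and diamonds are FOS, whose changes are shown without a test. EGR1 and MYC lie to the right of 0 in both panels of the knockdown cells, JUNB and IER3 to the left in both panels that set HSP990 against DMSO, and every interval of the Dox panel except that of EGR1 crosses 0.

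FOS, the founding member of the Fos family, was faint everywhere but in 1 group. Its signal was 8.1 and 7.5 in shHSF1 Dox HSP990 cells, 22.5 and 21.9 in shHSF1 HSP990 cells, 8.0 and 7.7 in shNTC Dox DMSO cells, and 7.8 and 9.3 in shNTC DMSO cells. Both shHSF1 HSP990 arrays stood above all others, and only these 2 reached their array's median. FOS thus passed the filter through the group where it was high, so that a difference from the rest was built into its being tested. As a description, with no test, the fitted change was -0.68 on the log2 scale with the knockdown and 0.64 in shHSF1 HSP990 against shNTC DMSO cells. These sizes depend on the dim side: with the knockdown the change was -1.40 with 1 and -0.26 with 64 in place of 16 added to the signal. In shHSF1 Dox HSP990 against shNTC Dox DMSO cells, both dim, it was -0.0031 (-0.012 without the second shNTC Dox DMSO array), with overlapping arrays.

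FOSB, a Fos protein best known for its lasting truncated form in neurons, was high in the knockdown cells. Its signal was 93.0 and 90.5 in shHSF1 Dox HSP990 cells, 57.0 and 50.9 in shHSF1 HSP990 cells, 39.0 and 57.7 in shNTC Dox DMSO cells, and 52.7 and 49.2 in shNTC DMSO cells. Both knockdown arrays exceeded the other 6, among which the groups overlapped. Neither difference was called: 0.62 for the knockdown (SE 0.21, adjusted p = 0.162) and 0.76 against shNTC Dox DMSO cells (SE 0.21, adjusted p = 0.0620; 0.97 and 0.0611 without the second shNTC Dox DMSO array). The difference against shNTC Dox DMSO cells was close to the threshold, and FOSB was called there with 64 added to the signal (0.48, adjusted p = 0.0450), with no trend in the variances (adjusted p = 0.0420) and in the fit on means of probe sets (adjusted p = 0.0316).

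FOSL1, or FRA-1, the Fos protein tied to ERK activity and invasion in melanoma, did not separate the groups. Signals were 1390.5 and 1226.2 in shHSF1 Dox HSP990 cells, 1257.5 and 1315.1 in shHSF1 HSP990 cells, 1057.7 and 1702.5 in shNTC Dox DMSO cells, and 1276.3 and 1643.2 in shNTC DMSO cells. The spread within each shNTC group was wider than any difference between group means. The interval of its change was -0.47 to 0.51 for the knockdown and -0.66 to 0.32 for shHSF1 HSP990 against shNTC DMSO cells. Against shNTC Dox DMSO cells the change was -0.039, and 0.30 (adjusted p = 0.461) without the second array of those cells.

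JUN, which can form AP-1 with itself or with a Fos protein, had 4 probe sets, all above the filter. The brightest, 201464_x_at, had 416.3 and 579.5 in shHSF1 Dox HSP990 cells, 410.9 and 492.8 in shHSF1 HSP990 cells, 270.5 and 326.1 in shNTC Dox DMSO cells, and 333.5 and 306.4 in shNTC DMSO cells. All 4 HSP990 arrays exceeded all 4 DMSO arrays, and the HSP990 groups overlapped each other. The change against shNTC Dox DMSO cells was 0.70 (SE 0.19, adjusted p = 0.0676; 0.82 and 0.115 without the second shNTC Dox DMSO array), not called, and 0.12 for the knockdown (interval -0.31 to 0.55). Without the first shHSF1 Dox HSP990 array JUN was called against shNTC Dox DMSO cells (0.93, adjusted p = 0.0436). The mean of its probe sets passed the test against shNTC Dox DMSO cells (0.88, adjusted p = 0.0306). When each probe set was tested singly in that comparison, over 24631 probe sets of which 3.98% were called, 201466_s_at rose by 1.15 (adjusted p = 0.0241) and 201465_s_at by 0.91 (adjusted p = 0.0444), while 213281_at had 0.76 (adjusted p = 0.116). The JUN probe sets thus shared a direction against shNTC Dox DMSO cells and differed in the call. On 201465_s_at the shNTC cells had 60.9 and 72.9 with Dox against 108.8 and 115.2 without, a change of -0.63, not called. Its change in shHSF1 HSP990 against shNTC DMSO cells was 0.22, so its rise against shNTC Dox DMSO cells rests in part on a low Dox control.

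JUNB, a weaker activator than JUN that often opposes it, went the other way. Its signal was 61.0 and 121.2 in shHSF1 Dox HSP990 cells, 78.3 and 69.0 in shHSF1 HSP990 cells, 196.7 and 183.9 in shNTC Dox DMSO cells, and 154.3 and 154.9 in shNTC DMSO cells. Every HSP990 array was below every DMSO array, and the knockdown arrays lay on both sides of the shHSF1 HSP990 arrays. JUNB fell by 1.00 in shHSF1 Dox HSP990 against shNTC Dox DMSO cells (SE 0.26, interval -1.58 to -0.43, adjusted p = 0.0485), with a signal ratio of 0.479. The call was lost in 5 of 8 fits that left out 1 array: without the first shHSF1 Dox HSP990 array the change was -0.59 (adjusted p = 0.219), without the second shNTC Dox DMSO array -1.05 (adjusted p = 0.146), and without the first shNTC Dox DMSO array or either shNTC DMSO array the adjusted p was 0.130, 0.0866 and 0.0871. In shHSF1 HSP990 against shNTC DMSO cells the change was -0.93 (SE 0.26, adjusted p = 0.444), not called.

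EGR1, a growth factor responsive zinc finger factor with the CArG boxes shown above, was highest in the knockdown cells. On 227404_s_at, its brightest probe set, the signal was 2313.9 and 2161.3 in shHSF1 Dox HSP990 cells, 1265.1 and 1170.6 in shHSF1 HSP990 cells, 986.3 and 1063.4 in shNTC Dox DMSO cells, and 1314.7 and 1415.5 in shNTC DMSO cells. Both knockdown arrays stood above the other 6, and the shHSF1 HSP990 arrays lay between those of the shNTC groups. EGR1 rose by 0.87 with the knockdown (SE 0.14, interval 0.55 to 1.19, adjusted p = 0.0117), a signal ratio of 1.84. It rose by 1.11 against shNTC Dox DMSO cells (SE 0.14, interval 0.79 to 1.44, adjusted p = 0.00198), a ratio of 2.18. The call against shNTC Dox DMSO cells held when any 1 array was left out (1.06 to 1.17, adjusted p 0.0026 to 0.0171; 1.17 and 0.00967 without the second shNTC Dox DMSO array). The knockdown call was lost without any 1 of the 4 shHSF1 arrays (0.81 to 0.92, adjusted p 0.0541 to 0.0791) and when all EGR1 probe sets were averaged (0.70, adjusted p = 0.0765).

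The EGR1 signal with Dox in shNTC cells was below that without it, by a change of -0.41 (SE 0.14, adjusted p = 1.00), not called. The change with Dox in shHSF1 cells under HSP990 minus that in shNTC cells under DMSO, a direct test of the difference, was 1.28 (SE 0.20, interval 0.82 to 1.73, adjusted p = 0.0199), and EGR1 alone of the 10 was called there, beside 0.789% of all genes. Leaving out any array other than the second shNTC Dox DMSO array ended this call (adjusted p 0.0529 to 0.157; 1.33 and 0.0463 without that array). This difference mixes the hairpin line and the inhibitor. The second probe set, 201694_s_at, had 1335.8 and 2587.3 in shHSF1 Dox HSP990 cells, 792.3 and 1259.7 in shHSF1 HSP990 cells, 641.5 and 969.4 in shNTC Dox DMSO cells, and 1003.1 and 998.1 in shNTC DMSO cells. Its arrays were wide apart within the knockdown group, and its changes of 0.89 with the knockdown (adjusted p = 0.233; 1.88% of probe sets were called) and 1.22 against shNTC Dox DMSO cells (adjusted p = 0.0662) were close in size to those of 227404_s_at and not called. The third, 201693_s_at, was near the array medians, at 11.7 and 21.8 in shHSF1 Dox HSP990 cells and 3.1 to 12.1 in the others, and reached the median only on both knockdown arrays, through which alone it passed the filter.

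**Figure D3:**
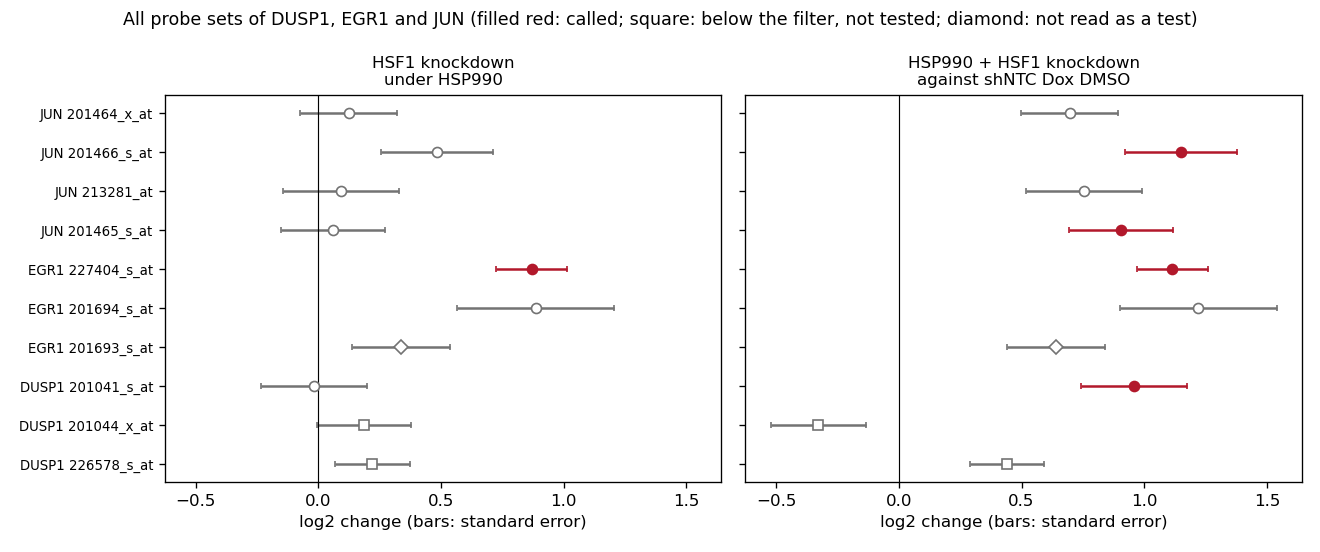
log2 change (horizontal axis, bars are standard errors) of every probe set of JUN, EGR1 and DUSP1 for the knockdown under HSP990 and for shHSF1 Dox HSP990 against shNTC Dox DMSO cells; filled red points were called among all 24631 probe sets tested singly, and squares are the 2 DUSP1 probe sets below the filter, which were not tested. The diamond is EGR1 201693_s_at, tested only through the knockdown arrays, so that its direction was fixed. The EGR1 probe sets 227404_s_at and 201694_s_at lie right of 0 in both panels, and the 4 JUN probe sets lie near or right of 0 in the knockdown panel and between 0.70 and 1.15 against shNTC Dox DMSO cells.

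MYC, a driver of growth and metabolism that binds DNA together with MAX, differed in steps between the groups. Its signal was 145.1 and 156.2 in shHSF1 Dox HSP990 cells, 82.2 and 72.6 in shHSF1 HSP990 cells, 49.6 and 42.7 in shNTC Dox DMSO cells, and 48.4 and 41.9 in shNTC DMSO cells. The knockdown arrays were above the shHSF1 HSP990 arrays and these above all DMSO arrays, which overlapped. MYC rose by 1.42 against shNTC Dox DMSO cells (SE 0.19, interval 1.00 to 1.85, adjusted p = 0.00248), a signal ratio of 3.26, the largest of the 10 in that comparison. This call held when any 1 array was left out (1.34 to 1.50, adjusted p 0.0027 to 0.0259; 1.34 and 0.0259 without the second shNTC Dox DMSO array). With the knockdown MYC rose by 0.84 (SE 0.19, interval 0.41 to 1.26, adjusted p = 0.0490), a ratio of 1.95, and that call was lost without any 1 of the 8 arrays (adjusted p 0.0505 to 0.232). In shHSF1 HSP990 against shNTC DMSO cells the change was 0.61 (SE 0.19, adjusted p = 0.591), not called. The MYC change with Dox in shHSF1 cells under HSP990 minus that in shNTC cells under DMSO was 0.81 (SE 0.27, limma adjusted p = 0.277), also not called.

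IER2, a small nuclear protein induced by serum, was lowest in shHSF1 HSP990 cells. Signals were 1325.6 and 1772.2 in shHSF1 Dox HSP990 cells, 862.8 and 1066.2 in shHSF1 HSP990 cells, 1844.2 and 1860.8 in shNTC Dox DMSO cells, and 1648.7 and 1892.8 in shNTC DMSO cells. The shHSF1 HSP990 arrays lay below all 6 others. No comparison called it: the change was -0.87 in shHSF1 HSP990 against shNTC DMSO cells (SE 0.18, adjusted p = 0.171), 0.67 with the knockdown (SE 0.18, adjusted p = 0.0887) and -0.27 against shNTC Dox DMSO cells (interval -0.68 to 0.14; -0.26 without the second shNTC Dox DMSO array).

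IER3, a survival protein induced by stress and ERK signaling, was low on all HSP990 arrays. Its signal was 1766.9 and 1824.8 in shHSF1 Dox HSP990 cells, 1496.5 and 1408.0 in shHSF1 HSP990 cells, 2593.9 and 3270.3 in shNTC Dox DMSO cells, and 2847.2 and 2937.9 in shNTC DMSO cells. No HSP990 array reached any DMSO array, and the knockdown arrays were above those of shHSF1 HSP990 cells. IER3 fell by 0.99 in shHSF1 HSP990 against shNTC DMSO cells (SE 0.16, interval -1.35 to -0.62, adjusted p = 0.0492), a signal ratio of 0.502, and by 0.69 in shHSF1 Dox HSP990 against shNTC Dox DMSO cells (SE 0.16, interval -1.06 to -0.33, adjusted p = 0.0356). The first call was lost without any 1 array other than those of shNTC Dox DMSO cells (adjusted p 0.102 to 0.599), the second without any 1 array but the first shNTC Dox DMSO array (-0.53, adjusted p = 0.0846, without the second), with sizes of -1.03 to -0.94 and -0.86 to -0.53. The change with the knockdown was 0.30 (adjusted p = 0.428).

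DUSP1, the nuclear phosphatase that switches off JNK, p38 and ERK, was high on all HSP990 arrays. On 201041_s_at its signal was 180.2 and 134.5 in shHSF1 Dox HSP990 cells, 171.2 and 145.8 in shHSF1 HSP990 cells, 67.0 and 78.1 in shNTC Dox DMSO cells, and 71.7 and 95.3 in shNTC DMSO cells. The 4 HSP990 arrays were above the 4 DMSO arrays, and both HSP990 groups overlapped. DUSP1 rose by 0.96 in shHSF1 Dox HSP990 against shNTC Dox DMSO cells (SE 0.22, interval 0.47 to 1.45, adjusted p = 0.0320), a signal ratio of 2.17. The call was lost without any 1 array except those of shHSF1 HSP990 cells (0.77 to 1.15, adjusted p 0.0535 to 0.159; 1.05 and 0.0842 without the second shNTC Dox DMSO array) and with the mean of the probe sets, 2 of which were dim (0.36, adjusted p = 0.128). The change was 0.82 in shHSF1 HSP990 against shNTC DMSO cells (SE 0.22, adjusted p = 0.416), not called, and -0.018 with the knockdown (interval -0.51 to 0.47).

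On the brightest probe sets, Dox alone, in shNTC cells, separated the arrays of JUNB, 196.7 and 183.9 with Dox against 154.3 and 154.9 without, and of EGR1, 986.3 and 1063.4 with Dox against 1314.7 and 1415.5 without. Without the second Dox array the changes were 0.32 for JUNB and -0.46 for EGR1, beside 0.27 and -0.41 with it. None of the 10 was called (limma adjusted p = 1.00 for each), and EGR1 alone had an unadjusted p under 0.05 among the 10, beside 2.41% of all genes. The methods' t-test gave 2 of the 10 an unadjusted p under 0.05 and called none after adjustment.

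Other genes of these pathways, in lists also chosen with earlier results of these data known, moved in part. Their counts stand beside the shares of all genes called that are given above, and at an unadjusted p under 0.05 the shares of all genes were 15.3% for the knockdown, 19.5% against shNTC Dox DMSO cells and 4.96% for shHSF1 HSP990 against shNTC DMSO cells. Of 87 listed genes other than the 10, 15 were called against shNTC Dox DMSO cells, and 11 of them kept the call without the second shNTC Dox DMSO array, all but ELK3, NAB2, MMP1 and MMP3 (limma adjusted p = 0.110, 0.0792, 0.136 and 0.196). Of 22 other immediate early genes tested, 5 rose and 1 fell in shHSF1 Dox HSP990 against shNTC Dox DMSO cells, with a median change of 0.22. HBEGF, an EGF receptor ligand, had 709.6 and 566.2 in shHSF1 Dox HSP990 cells, 298.0 and 295.3 in shHSF1 HSP990 cells, 176.7 and 140.0 in shNTC Dox DMSO cells, and 288.3 and 288.3 in shNTC DMSO cells. It rose by 1.91 against shNTC Dox DMSO cells (SE 0.18, adjusted p = 0.000411 in limma) and by 1.06 with the knockdown (adjusted p = 0.0126), and its shHSF1 Dox HSP990 arrays stood above all others, as those of EGR1 did. The shNTC Dox DMSO arrays of HBEGF lay below those of all other groups. Its change with Dox in shNTC cells was -0.81, not called, so the 1.91 rests in part on a low Dox control. ATF3, a stress-induced factor of the AP-1 superfamily, rose by 1.53, and GADD45B, a stress sensor upstream of p38 and JNK, by 1.39, both against shNTC Dox DMSO cells. With Dox in shNTC cells the change was -0.034 for ATF3 and -0.46 for GADD45B, neither called. IER5L, a relative of the heat shock cofactor gene IER5, had 65.9 and 61.2 in shHSF1 Dox HSP990 cells, 315.4 and 248.4 in shHSF1 HSP990 cells, 99.7 and 93.8 in shNTC Dox DMSO cells, and 109.8 and 73.8 in shNTC DMSO cells. It rose by 1.48 in shHSF1 HSP990 against shNTC DMSO cells and fell by 1.90 with the knockdown, so that, as for FOS, its shHSF1 HSP990 arrays stood above all others. With the knockdown 2 of the 22 rose and 1 fell (median 0.33), and in shHSF1 HSP990 against shNTC DMSO cells 1 rose and 0 fell (median 0.048).

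Among 8 other AP-1 and related factors tested, ATF3 and MAFF rose (MAFF, a small Maf protein, by 1.41) and ATF2, a partner of JUN, fell by 1.15 against shNTC Dox DMSO cells (list median 0.62). MAFF had 884.9 and 849.4 in shHSF1 Dox HSP990 cells, 765.5 and 781.8 in shHSF1 HSP990 cells, 326.6 and 307.7 in shNTC Dox DMSO cells, and 604.6 and 689.4 in shNTC DMSO cells. The shNTC Dox DMSO arrays thus lay below those of all other groups for MAFF, and its change with Dox in shNTC cells was -0.99 (limma adjusted p = 0.318), not called. ATF2 also fell by 1.11 with the knockdown, with 243.1 and 237.5 in shHSF1 Dox HSP990 cells against 535.0 and 537.4 in shHSF1 HSP990 cells. It was the only 1 of the 8 called there (list median 0.19), and limma called none in shHSF1 HSP990 against shNTC DMSO cells, where 2 had an unadjusted p under 0.05 (median 0.21). Of 11 regulators of the serum response, none rose, and ELK3, a repressive partner of serum response factor, fell with the knockdown (by 0.97) and against shNTC Dox DMSO cells (by 0.97); there NAB2, a corepressor of EGR1, also fell (by 1.00). The list medians were -0.0063 and -0.079. Serum response regulators called in shHSF1 HSP990 against shNTC DMSO cells numbered 0 in limma, with 2 at an unadjusted p under 0.05 and a median of -0.16.

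Of 16 ERK output genes, which include IER3, DUSP5 rose and IER3 and SPRY1, an ERK feedback inhibitor, fell against shNTC Dox DMSO cells (list median -0.31). SPRY1 fell by 1.35, with 206.5 and 147.8 in shHSF1 Dox HSP990 cells against 612.0 and 359.7 in shNTC Dox DMSO cells. In shNTC DMSO cells it had 351.7 and 306.2. Its change with Dox in shNTC cells was 0.50, not called, so the 1.35 rests in part on a high Dox control. DUSP5, a nuclear phosphatase of ERK, had 1198.8 and 1256.6 in shHSF1 Dox HSP990 cells, 709.4 and 690.6 in shHSF1 HSP990 cells, 660.5 and 588.6 in shNTC Dox DMSO cells, and 735.6 and 666.0 in shNTC DMSO cells. It rose by 0.80 with the knockdown, the only ERK output gene called there (median 0.14), and by 0.96 against shNTC Dox DMSO cells, and IER3 was the only one called in shHSF1 HSP990 against shNTC DMSO cells (median -0.24). Of the 3 other nuclear DUSP genes, DUSP5 was again the only one called, with list medians of 0.14 for the knockdown and 0.59 against shNTC Dox DMSO cells.

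limma called 0 of 13 MYC target genes tested in any comparison, a count near the share of all genes called, with medians of 0.023 for the knockdown, 0.12 against shNTC Dox DMSO cells and -0.041 for shHSF1 HSP990 against shNTC DMSO cells. At an unadjusted p under 0.05 there were 0, 2 and 0 of the 13, beside the 15.3%, 19.5% and 4.96% of all genes. Of 9 MYC network partners tested, MXD1, which competes with MYC for MAX, was the only one called. Its signal was 414.9 and 606.7 in shHSF1 Dox HSP990 cells, 962.1 and 925.8 in shHSF1 HSP990 cells, 361.5 and 347.9 in shNTC Dox DMSO cells, and 390.3 and 365.7 in shNTC DMSO cells. MXD1 rose by 1.29 in shHSF1 HSP990 against shNTC DMSO cells (limma adjusted p = 0.0216) and fell by 0.89 with the knockdown (adjusted p = 0.0302). List medians were -0.045, 0.043 and, against shNTC Dox DMSO cells, 0.046.

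AP-1 target genes split. Of 12 tested, HBEGF, IL6 and MMP3 rose and MMP1 fell against shNTC Dox DMSO cells (list median 0.013), and HBEGF and MMP3 rose with the knockdown (median 0.14). MMP3, a matrix metalloproteinase, had 744.1 and 439.6 in shHSF1 Dox HSP990 cells, 144.5 and 110.7 in shHSF1 HSP990 cells, 241.0 and 206.0 in shNTC Dox DMSO cells, and 118.2 and 52.5 in shNTC DMSO cells. It rose by 2.04 with the knockdown and by 1.30 against shNTC Dox DMSO cells. MMP3 also changed by 1.32 with Dox in shNTC cells, not called, and the knockdown arrays differ in Dox too. In the difference of the Dox changes HBEGF was the only AP-1 target gene called, so MMP3 was not. MMP1, the interstitial collagenase, fell by 1.80 against shNTC Dox DMSO cells, where it had 310.7 and 112.8 in shHSF1 Dox HSP990 cells and 771.0 and 630.6 in shNTC Dox DMSO cells. Its change with Dox in shNTC cells was 0.67, not called. IL6, an inflammatory cytokine, rose by 1.43. limma called none of the 12 in shHSF1 HSP990 against shNTC DMSO cells, where 1 had an unadjusted p under 0.05 (median 0.064). For Dox in shNTC cells limma called no gene of any of these lists, with 0 to 2 genes of a list at an unadjusted p under 0.05.

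For each called gene and for FOS the most similar profiles over the 8 arrays were looked up among all genes tested, as a description, since the arrays share groups and scaling. FOS was closest to HSPA6 (r = 0.994 over 8 arrays), an HSP70 gene switched on by strong heat shock, to HSPA4L (r = 0.989), of the HSP110 family, and to C11orf96 (r = 0.977). HSPA6 had 18.3 and 12.4 in shHSF1 Dox HSP990 cells, 1680.8 and 1328.5 in shHSF1 HSP990 cells, 5.1 and 12.7 in shNTC Dox DMSO cells, and 8.0 and 15.5 in shNTC DMSO cells. The correlation thus rests on the 2 shHSF1 HSP990 arrays standing apart for both genes. MYC was closest to CD274, the immune checkpoint ligand PD-L1 (r = 0.988), CHMP2B (r = 0.983) and PDLIM7 (r = 0.983). CD274 had 426.2 and 425.4 in shHSF1 Dox HSP990 cells, 238.6 and 228.8 in shHSF1 HSP990 cells, 133.7 and 119.4 in shNTC Dox DMSO cells, and 156.2 and 143.0 in shNTC DMSO cells, the same steps between the HSP990 groups and the DMSO groups as MYC. EGR1 was closest to ZNF594 (r = 0.985), LNP1 (r = 0.978) and WWC1 (r = 0.978), and DUSP1 to TMEM268 (r = 0.980), the amino acid transporter gene SLC1A4 (r = 0.978) and VAC14 (r = 0.978). JUNB was closest to TNPO2 (r = 0.962), FAM120B (r = 0.954) and TMEM60 (r = 0.954), and IER3 to UBN1 (r = 0.976), TIPARP (r = 0.951) and TOR1A (r = 0.949).

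**Figure D4:**
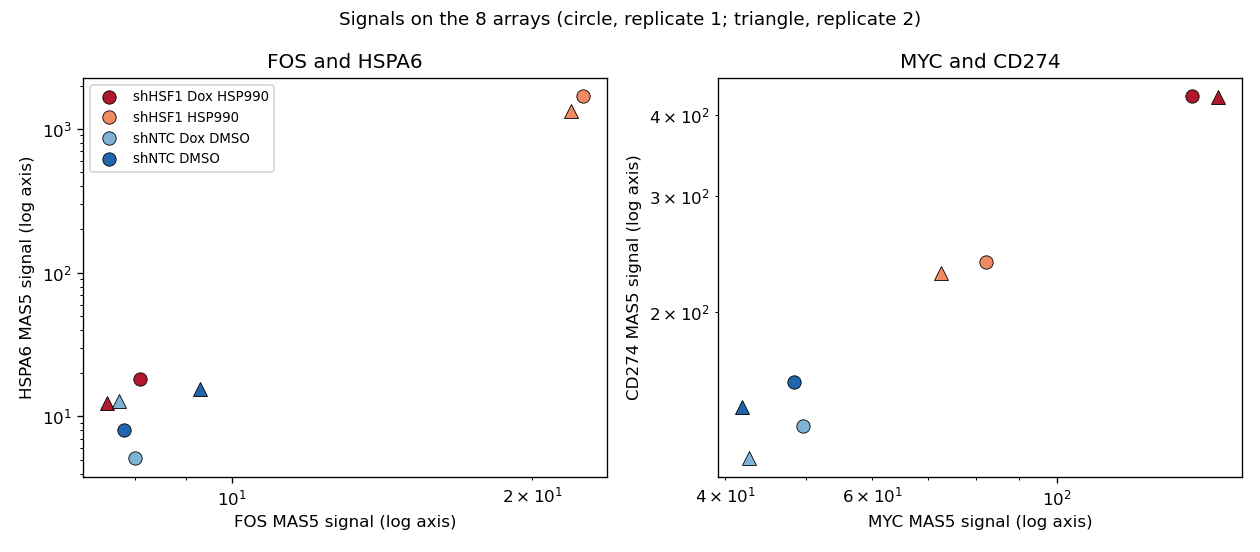
MAS5 signals (both axes are log axes) of FOS against HSPA6 and of MYC against CD274 on the 8 arrays, coloured by group, circles for replicate 1 and triangles for replicate 2. In the FOS panel the 2 shHSF1 HSP990 arrays lie alone at the upper right and the other 6 together at the lower left, while in the MYC panel the shHSF1 Dox HSP990 arrays are highest, the shHSF1 HSP990 arrays next and the DMSO arrays lowest.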

How the data were processed

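The 8 HG-U133 Plus2 arrays hold A375 cells in 4 groups, read from the sample titles, with 2 arrays per group. Per the labels, RNA was amplified and labelled with biotin. The deposited intensities come from MAS5, run by the authors (version not given in the sources used here). They are linear, with a mean of 150 per array after trimming 2% of probe sets at each end, and were used without further normalization; MAS5 scaling sets each array to the same mean and so cannot show a shift of all genes. The number of arrays limits the precision.

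Of 54675 probe sets, 41091 carried 1 gene symbol and were used (1801 carried several, 11721 none, 62 were controls). Each gene was read from its brightest probe set, by mean log2(signal + 16). A gene was tested where its signal was at or above its array's median on at least 2 of 8 arrays. limma 3.58.1 in R 4.3.3 fitted 1 mean per group to the 8 arrays together, with empirical Bayes variances and a trend on intensity (4 residual and 6.36 prior degrees of freedom); two-sided p-values were adjusted across the tested genes (Benjamini-Hochberg), with calls below an adjusted 0.05. The fit was tested on simulated data. A fold change on the log2(signal + 16) scale understates the change of dim genes. Tables and plots were made with Python 3.

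The 5 comparisons were shHSF1 HSP990 against shNTC DMSO, shHSF1 Dox HSP990 against shHSF1 HSP990 (the knockdown), Dox in shNTC cells, shHSF1 Dox HSP990 against shNTC Dox DMSO, and the knockdown minus the Dox change. As alternatives, 1 or 64 was added instead of 16, and other filters, quantile normalization, median centring, other uses of the probe sets, no trend, only the arrays compared, a replicate block, the methods' t-test and leaving out each array were tried.

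The genes and lists were chosen with earlier results of these data known. Named are the 10 genes, HSF1, up to 4 called genes per list with the largest changes, and the 3 closest profiles of each gene called in any comparison, FOS included. The lists were other AP-1 and bZIP factors, other immediate early genes, serum response regulators, ERK output, MYC network partners, MYC targets, AP-1 targets, other nuclear DUSP phosphatases, and melanocyte, hepatocyte, epithelial, fibroblast and leukocyte markers. Markers are named to check the cells. Promoter sequences, gene lengths and names came from RefSeq tables (GRCh38.p14).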

Additional observations from a re-analysis of the deposited data

Results flagged for a closer look

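The EGR1 change with Dox in shHSF1 cells under HSP990 exceeded that in shNTC cells under DMSO by 1.28 on the log2 scale, by the test of the difference itself (limma adjusted p = 0.0199). The signals behind it moved in opposite directions: 2313.9 and 2161.3 with Dox against 1265.1 and 1170.6 without in shHSF1 cells under HSP990, and 986.3 and 1063.4 with Dox against 1314.7 and 1415.5 without in shNTC cells under DMSO. The cause was not tested, and the hairpin, the knockdown and the inhibitor cannot be told apart in it. No group had the 4 arrays needed to look for an array far from the others.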

How the results depend on the processing

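Of the 10 genes, EGR1 and MYC in shHSF1 Dox HSP990 against shNTC Dox DMSO cells kept their calls under every limma alternative, and the other calls were each lost under some. Counts for the knockdown and for shHSF1 HSP990 against shNTC DMSO cells include FOS where it passed, as in both unadjusted t-tests. Its tests there are not read as results. In that comparison 5 genes were called, against 3 with median centring, 2 without the filter, 3 by the methods' t-test unadjusted and 0 after adjustment; 2 to 4 were called with 1 array left out. For the knockdown, 3 (counting FOS, whose test is not read as a result) became 1 with 1 added before the log, with no filter, with median centring, with probe sets tested singly and with only the arrays compared, 5 and 0 by the methods' t-test before and after adjustment, and 0 to 1 with 1 array left out. For shHSF1 HSP990 against shNTC DMSO cells, 1 became 0 with 1 added, with no filter, with the filter on all 8 arrays, with median centring, with the mean of probe sets, with probe sets tested singly, with no trend and by the adjusted t-test, 5 by the unadjusted one, and 0 to 1 with 1 array left out. For Dox in shNTC cells 0 became 2 by the unadjusted t-test and stayed 0 with any array left out. For the difference of the Dox changes 1 became 0 with median centring and with the mean of probe sets, and 0 to 1 with 1 array left out; the t-test was not run there, and the fit of only the arrays compared is the fit of all 8.

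The replicate number was tried as a block, although nothing in the labels says that it marks a shared day: deviations of same-numbered arrays correlated at 0.685 within the shHSF1 line and 0.464 within the shNTC line, and at 0.016 to 0.276 across lines. With the block, 7 of the 10 were called against shNTC Dox DMSO cells, with FOSB (adjusted p = 0.0410) and JUN (0.0259) added. For the knockdown 4 passed, with IER2 added (0.0254) and with FOS counted, whose test is not read as a result. In shHSF1 HSP990 against shNTC DMSO cells 2 were called, with IER2 added (0.0450). The block called 1 for the difference of the Dox changes and 0 for Dox.

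Signs turned for DUSP1 with the knockdown (0.13 with the mean of probe sets, -0.21 to 0.17 with 1 array left out) and FOSL1 against shNTC Dox DMSO cells (0.020 with quantile normalization, -0.38 to 0.30). With 1 array left out they also turned for FOSB (-0.00058 to 0.13) and FOSL1 (-0.35 to 0.011) in shHSF1 HSP990 against shNTC DMSO cells, for FOSL1 (-0.068 to 0.11), JUN (-0.11 to 0.35) and JUNB (-0.22 to 0.62) with the knockdown, and for FOS (-0.021 to 0.015) against shNTC Dox DMSO cells, none of them called. The filter on all 8 arrays left out FOS. The causes were not tested. A group left with 1 array is assumed to vary like the others.

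Over all genes, the calls with no filter, with the block and over arrays left out were 450, 1237 and 263 to 802 against shNTC Dox DMSO cells (739), 221, 752 and 123 to 380 for the knockdown (360; 95 with only the arrays compared), 16, 44 and 5 to 30 for shHSF1 HSP990 against shNTC DMSO cells (28), and 59, 279 and 7 to 76 for the difference of the Dox changes (100). The methods' t-test called 0 genes after adjustment and 1335, 1413, 699 and, for Dox, 588 before it; limma called 0 for Dox, with 306 genes at an unadjusted p under 0.05.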

Other observations

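The 10 genes are short, with a median length of 3614 bases (1349 for IER3 to 8497 for FOSL1) beside 29841.5 over 12660 genes tested with a known length, of which 18.9% were shorter than the longest of the 10.

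Pairs of the 10 differed widely in how their signals ran over the 8 arrays, which share groups and scaling. EGR1 and FOSB had r = 0.918 and EGR1 and MYC r = 0.844, while JUNB and DUSP1 had r = -0.939 and FOS and IER2 r = -0.896. FOS and MYC had r = 0.050. The r values of FOS rest on the shHSF1 HSP990 arrays, the only ones on which it reached the array median, and are no more than a description.

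KLF6, a zinc finger factor of the Krüppel family induced early after stimuli, had 624.6 and 542.6 in shHSF1 Dox HSP990 cells, 623.0 and 648.1 in shHSF1 HSP990 cells, 1227.9 and 1011.4 in shNTC Dox DMSO cells, and 1060.7 and 1016.2 in shNTC DMSO cells. It fell by 0.92 in shHSF1 Dox HSP990 against shNTC Dox DMSO cells (limma adjusted p = 0.00762), with every HSP990 array below every DMSO array, as for JUNB and IER3. PLK2, a polo-like kinase, had 1985.2 and 2123.3 in shHSF1 Dox HSP990 cells and 1222.0 and 1276.6 in shHSF1 HSP990 cells, and rose by 0.71 with the knockdown (limma adjusted p = 0.0289). The matricellular genes CCN1 and CCN2 rose by 1.34 and 1.26 in shHSF1 Dox HSP990 against shNTC Dox DMSO cells (adjusted p = 0.00479 and 0.00723). CCN1 had 2132.3 and 2807.5 in shHSF1 Dox HSP990 cells, 1296.2 and 1533.8 in shHSF1 HSP990 cells, 815.5 and 1114.9 in shNTC Dox DMSO cells, and 1570.6 and 1312.9 in shNTC DMSO cells. The shNTC Dox DMSO arrays of CCN1 thus lay below those of all other groups, and its change with Dox in shNTC cells was -0.58, not called. Without the second shNTC Dox DMSO array the changes against shNTC Dox DMSO cells were -1.06 for KLF6, 1.57 for CCN1 and 1.30 for CCN2, all still called.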
